A study of Mus musculus with 24 samples.

Results

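Of 128679 accessible regions found across a cardiac differentiation course, 2600 were called at day 15 (D15) and at no other time point, and these D15-only regions are described here. They were chosen by merging overlapping peaks of all 12 peak lists and keeping each merged region that held a D15 peak and no peak of the other 11 lists. They made up 2.02% of all regions and 10.4% of the 25076 regions of the D15 list. The remaining 22476 regions of that list were shared with at least 1 other list.

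Accessibility was measured by ATAC-seq, in which the Tn5 transposase inserts sequencing adapters into DNA that nucleosomes leave exposed. The cells were A2lox.cre, a single mouse embryonic stem cell line built to accept inducible transgenes, so replicates are cultures of 1 line with no treatment groups besides time. Samples were taken in 2i medium, which holds stem cells in naive pluripotency, then on each day from D0 to D8, and at D10 and D15, with 2 biological replicates per time point and 24 samples in all. The labels call D10 and D15 cardiomyocytes and the earlier samples intermediate stages, and both replicates of a time point name 1 shared peak list, so no value below has a replicate spread and no difference was tested.

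Accessible regions are mostly promoters, enhancers and insulators, the DNA elements that transcription factors bind to set gene activity. Promoters rich in CpG tend to be open in most cell types, while enhancers tend to open in few and often lie far from the gene they act on. In the heart, enhancers bound by GATA, MEF2, TBX and MEIS factors turn on the contractile and calcium-handling genes. A region that a peak list lacks was not called there, and it was not shown to be closed.

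Few D15-only regions lay at gene starts, and the promoters below are shown because a D15-only region overlapped each of them. An overlap of 1 bp was enough, and 37 of the 55 windows so found had at least 150 bp. A window could also hold a region of another list, and some of the D15-only regions did not reach the start itself. D15-only regions overlapped 55 of 32619 RefSeq promoter windows (0.169%), each running from 250 bases before to 50 bases after a start, and 29 of the 55 belonged to protein-coding genes. Printed are the 250 bases before the start for 5 protein-coding genes with the highest fold enrichment among them, for Anxa1, which holds the TATA box letters near its start, and for Cyp1b1, 1 of only 2 CpG-rich windows. Anxa1 and Cyp1b1, and the limit to protein-coding genes, were picked after the values were seen. Sequences are from RefSeq (GRCm38.p6), 5′ to 3′ on the gene's strand, and capitals mark matches to the motifs named afterwards.
Mrln: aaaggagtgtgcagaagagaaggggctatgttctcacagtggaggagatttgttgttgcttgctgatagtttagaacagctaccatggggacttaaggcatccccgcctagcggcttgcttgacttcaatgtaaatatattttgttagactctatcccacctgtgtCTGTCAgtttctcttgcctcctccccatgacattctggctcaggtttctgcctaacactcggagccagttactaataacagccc
Lrrc2: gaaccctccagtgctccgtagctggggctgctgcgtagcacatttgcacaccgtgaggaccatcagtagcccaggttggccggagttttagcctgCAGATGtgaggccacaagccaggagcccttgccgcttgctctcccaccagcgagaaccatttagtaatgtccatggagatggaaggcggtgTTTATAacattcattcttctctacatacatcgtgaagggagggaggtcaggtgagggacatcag
Camp: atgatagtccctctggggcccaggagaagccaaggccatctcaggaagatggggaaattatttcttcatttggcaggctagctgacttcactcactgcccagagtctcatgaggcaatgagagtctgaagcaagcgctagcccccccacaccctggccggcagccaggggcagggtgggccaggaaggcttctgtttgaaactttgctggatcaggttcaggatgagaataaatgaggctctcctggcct
Hrh1: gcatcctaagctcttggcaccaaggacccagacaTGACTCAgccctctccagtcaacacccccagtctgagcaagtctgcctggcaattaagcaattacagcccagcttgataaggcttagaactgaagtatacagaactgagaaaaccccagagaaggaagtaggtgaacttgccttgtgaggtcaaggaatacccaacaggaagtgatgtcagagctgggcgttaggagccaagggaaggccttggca
Enpep: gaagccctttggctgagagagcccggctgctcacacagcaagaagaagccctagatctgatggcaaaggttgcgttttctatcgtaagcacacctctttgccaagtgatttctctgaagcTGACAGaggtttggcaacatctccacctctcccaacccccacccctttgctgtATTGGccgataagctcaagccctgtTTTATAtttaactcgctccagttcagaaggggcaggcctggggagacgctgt
Anxa1: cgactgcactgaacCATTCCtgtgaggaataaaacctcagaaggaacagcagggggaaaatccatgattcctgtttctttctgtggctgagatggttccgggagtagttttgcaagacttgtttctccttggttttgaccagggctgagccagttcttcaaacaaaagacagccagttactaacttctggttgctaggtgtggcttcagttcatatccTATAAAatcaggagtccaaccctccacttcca
Cyp1b1: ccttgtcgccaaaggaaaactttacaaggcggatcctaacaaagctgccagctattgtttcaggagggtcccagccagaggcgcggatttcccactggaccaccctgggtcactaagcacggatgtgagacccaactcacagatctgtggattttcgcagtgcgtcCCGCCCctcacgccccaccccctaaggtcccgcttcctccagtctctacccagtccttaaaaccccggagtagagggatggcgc

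The Mrln window lies at chr10:70204414-70204663 on the plus strand, at the start of the gene for myoregulin, a muscle micropeptide that restrains the sarcoplasmic calcium pump. The Lrrc2 window, of a leucine-rich repeat protein, is chr9:110951295-110951544 (plus), and that of Camp, a cathelicidin antimicrobial peptide, is chr9:109849457-109849706 (minus). The window of Hrh1, the histamine H1 receptor, is chr6:114458272-114458521 (plus), a start inside the annotated gene body. Enpep, an aminopeptidase that cleaves angiotensin, has its window at chr3:129332750-129332999 (minus). Anxa1, the phospholipid-binding annexin A1, has its window at chr19:20390672-20390921 (minus), and Cyp1b1, a cytochrome P450, at chr17:79715062-79715311 (minus).

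In these sequences the capitals mark a MEIS match on the opposite strand in Mrln, and E-box and TATA box matches on the opposite strand in Lrrc2. Hrh1 has an AP-1 match, and Enpep a MEIS match with CCAAT box and TATA box matches on the opposite strand. Anxa1 has a TEAD and a TATA box match, the latter beginning 32 bases before the start. Cyp1b1 has a GC box on the opposite strand. None of the 16 motifs searched was in the printed Camp window. A match is only a run of letters, not a bound site.

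The D15 peak at the Mrln start (chr10:70204430-70205346) had a fold enrichment of 7.71 over background and a −log10 q of 19.5. Both values are the peak caller's, as the authors deposited them, and a −log10 q of 2 means a false discovery rate of 1 in 100. No list other than D15 held any region assigned to Mrln. The peak at Lrrc2 reached 6.05, at Camp 6.03, at Hrh1 5.92, at Enpep 5.76, at Anxa1 4.80 and at Cyp1b1 4.57 in fold enrichment. Long non-coding RNA windows among the 10 strongest were those of Gm42190 (9.94), 9530020I12Rik (6.56), Gm32694 (6.01), Gm30042 (5.86) and Gm36913 (5.50). Like Mrln, Camp had its sole assigned region of any list at D15. The other genes also had regions in other lists. Lrrc2 had 4 at 2i and 1 at D10, and Hrh1 had 4 at D7. Enpep had 3 at D7 and at D8, and Cyp1b1 had 8 at D7. At Cyp1b1 the nearest region outside the set was called in every list and lay only 0.799 kb away between centres. The D15-only call there thus lay beside DNA called at every time point. At Anxa1 the nearest, called at D10, was 0.446 kb away. For Mrln, Lrrc2, Camp and Enpep the distance was 2.27 kb (Lrrc2) to 13.2 kb (Camp).

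Promoter windows overlapped by D15-only regions were mostly poor in CpG. The ratio of observed to expected CpG was at least 0.6 in 2 of 55 windows (3.64%), against 77.0% of the 13538 windows overlapped by other D15 regions and 36.0% of all windows. The median ratio was 0.270, against 0.786 at other D15 regions. The 2 windows above 0.6 were those of Cyp1b1 (0.642) and Hic1 (0.649), a zinc finger repressor. Among windows with an overlap of at least 150 bp, 1 of 37 was CpG-rich. The same difference from shared regions was present in every other list: windows overlapped by regions of 1 list only were CpG-rich in 0% (D1 and D6) to 17.1% (D2), so low CpG content was shared by the regions of each single list.

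**Figure D1:**
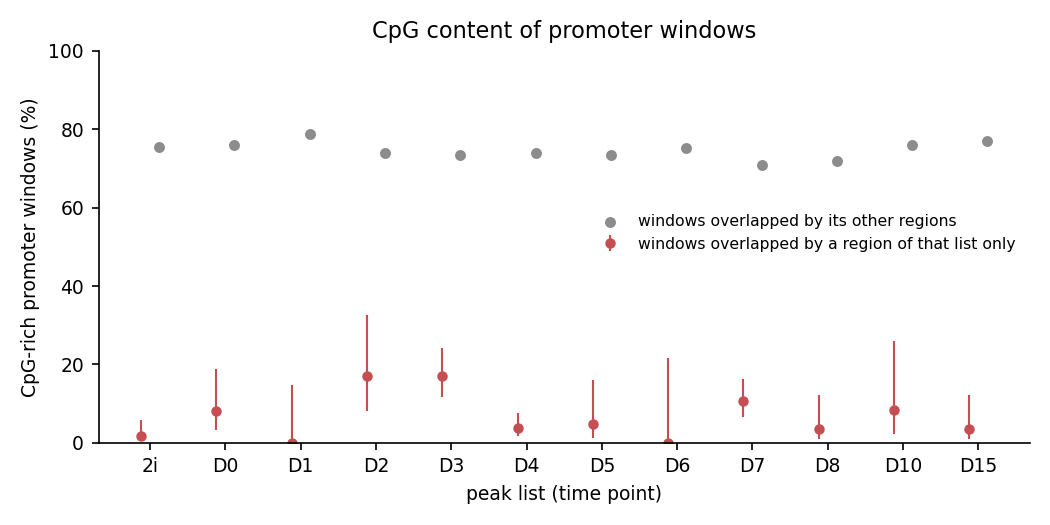
Share of 300-base promoter windows with an observed to expected CpG ratio of at least 0.6 (y axis, percent), for each of the 12 peak lists (x axis); red points are windows overlapped by regions of that list alone, with Wilson 95% intervals, and grey points are windows overlapped by its other regions. At D15 the shares were 3.64% and 77.0%, and in all 12 lists the red point lies below the grey.

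The TATA box letters TATAAA, on either strand, were in 11 of the 55 windows (Wilson 95% interval of the share 11.6% to 32.4%), against 5.78% of windows at other D15 regions and 13.7% of all windows. Windows of other single-list regions held them in 2.44% (D5) to 18.1% (D4). The GC box GGGCGG was in 18.2% of the windows, 68.4% at other D15 regions and 35.9% of all. The AP-1 letters TGANTCA were in 8 windows (14.5%, 7.56 to 26.2), 3.89% and 7.85% respectively. The intervals for the TATA box and AP-1 hold the share of all windows, and both lie above the share at other D15 regions.

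Other motifs were counted on both strands too. CATTCC (TEAD) was in 16.4% of the 55 windows and 14.6% of all, TGACAG (MEIS) in 23.6% and 18.9%, CATCTG (E-box) in 11 windows and 17.1% of all, and CCAAT in 38.2% and 37.6%. AAGGTCA (nuclear receptor half-site) was in 7.27% and 4.71%, and the MEF2 motif in 5.45% and 3.71%. The letters AGATAAG, read by GATA factors, AGGTGTGA (T-box), the CTCF motif and GTTGCCAT (RFX) were each in 1 window (1.82%), against 3.04%, 1.28%, 2.44% and 1.36% of all windows. The NFI motif, ACCGGAAG (ETS) and ATGCAAAT (OCT) were in none, with 0.0368%, 2.31% and 1.75% over all windows. The cardiac motifs MEF2, GATA, T-box and MEIS thus had intervals that include their share over all windows.

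D15-only regions were weak and narrow among the peaks of their own list, which is a description of the values the rule drew on. Their fold enrichment ran from 1.98 to 11.1 with a median of 3.84, against a median of 6.04 for shared D15 regions. The median −log10 q was 3.90 against 13.2, and the median width of the widest D15 interval was 334 bp against 714 bp. More than 1 summit was called in 166 D15-only regions (6.38%) and in 34.2% of shared ones. Regions of the other single lists had similar fold enrichments and widths in their own list. The median fold enrichment was 3.13 (D10) to 4.24 (2i) and the median width 258 bp (D6) to 391 bp (2i). Fewer of them, 0.206% (D6) to 3.01% (D3), had more than 1 summit. Their −log10 q varied more, with medians of 2.12 (D10) to 4.19 (D3). It reached 5 in 3.64% (D6) to 37.3% (D3), against 29.8% of D15-only regions. Regions of D15 and D10 only, 479 in all, fell between the D15-only and the shared regions, with a median D15 fold enrichment of 4.52 and −log10 q of 5.63.

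**Figure D2:**
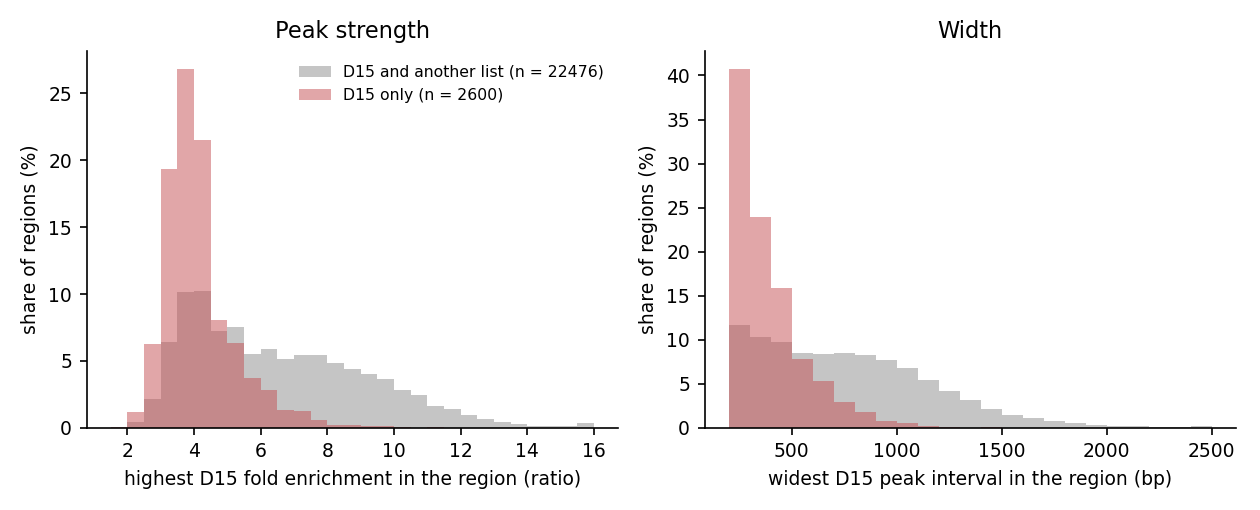
Distribution (share of regions, percent) of the highest D15 fold enrichment in a region (left, a ratio; values over 16 are in the last bin) and of the widest D15 peak interval (right, bp; wider ones are in the last bin), for 2600 D15-only and 22476 shared D15 regions. The D15-only medians, 3.84 and 334 bp, lie left of the shared medians, 6.04 and 714 bp.

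By −log10 q, 398 D15-only regions (15.3%) were below 2, 1426 (54.8%) lay between 2 and 5, and 776 (29.8%) reached 5. Those 776 were 4.34% of the D15 regions that reached 5. Fold enrichments came in steps: 1096 D15-only regions (42.2%) were at whole multiples of 0.320 within 0.001, with 194 at 3.20, 191 at 3.52, 191 at 3.84 and 189 at 4.16. Among these, differences smaller than 1 step could not be measured. Shared regions were on such multiples in 3587 cases of 22476. Read depth is unknown.

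Just outside the rule were 1244 regions held by D15 and exactly 1 other list. In 202 of these the other list's peak had a −log10 q under 2, and 112 of the 202 were D10 peaks. The partner list was D10 for 479, D7 for 289, D8 for 262 and D4 for 87, and 2i, D0 to D3, D5 and D6 gave 8 to 29 each. The D15 list also gave more statistical weight to a given enrichment than most lists: peaks with a fold enrichment of 4.9 to 5.1 had a median −log10 p of 11.5 at D15, 11.1 at D10, 10.5 at D8, 9.64 at D7 and 7.69 at 2i, with only D3 (11.6) above D15. The part of this weight in the count of 2600 was not tested.

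The share of a list's regions that no other list held was 10.4% at D15, beside 4.46% at D10 and 7.39% at D8. D4 (31.9%), 2i (19.4%), D7 (16.3%) and D0 (10.8%) had larger shares, and D3 (10.2%) and D1 (9.37%) were close below. D15, the last time point, has a neighbour on 1 side only and 5 days from it, which cannot be told apart from what is specific to that day.

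**Figure D3:**
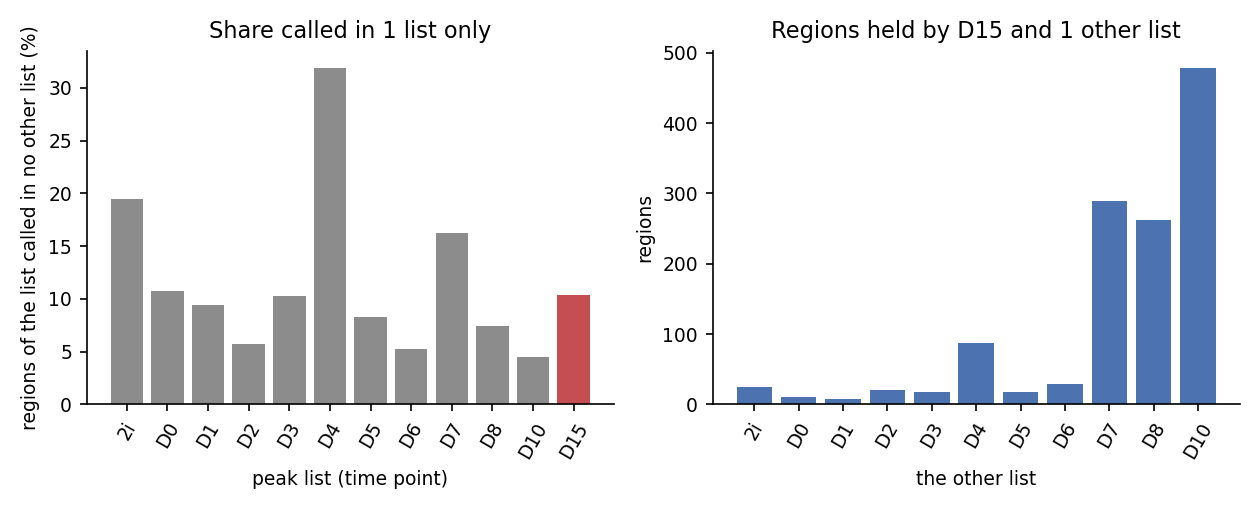
Left, percent of each list's regions that no other list held (y axis) by time point (x axis), with D15 in red at 10.4%. Right, number of regions held by D15 and exactly 1 other list, by that list; D10 (479), D7 (289) and D8 (262) gave the most.

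D15-only regions lay away from gene ends. Only 106 (4.08%, 3.38 to 4.91) had their centre within 1 kb of either end of a protein-coding gene, against 47.0% of shared D15 regions, and 57 (2.19%) lay within 1 kb of a listed start. Gene bodies held 1308 (50.3%), against 66.3% of shared regions, and 560 (21.5%) lay over 50 kb from any protein-coding gene, against 9.19%. Whether positions inside genes are exonic or intronic is not given here. The other single-list sets, with 1.71% (D1) to 7.08% (D3) at gene ends, resembled the D15-only set in this, while the share over 50 kb from genes ranged from 13.5% (D6) to 59.1% (D1).

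**Figure D4:**
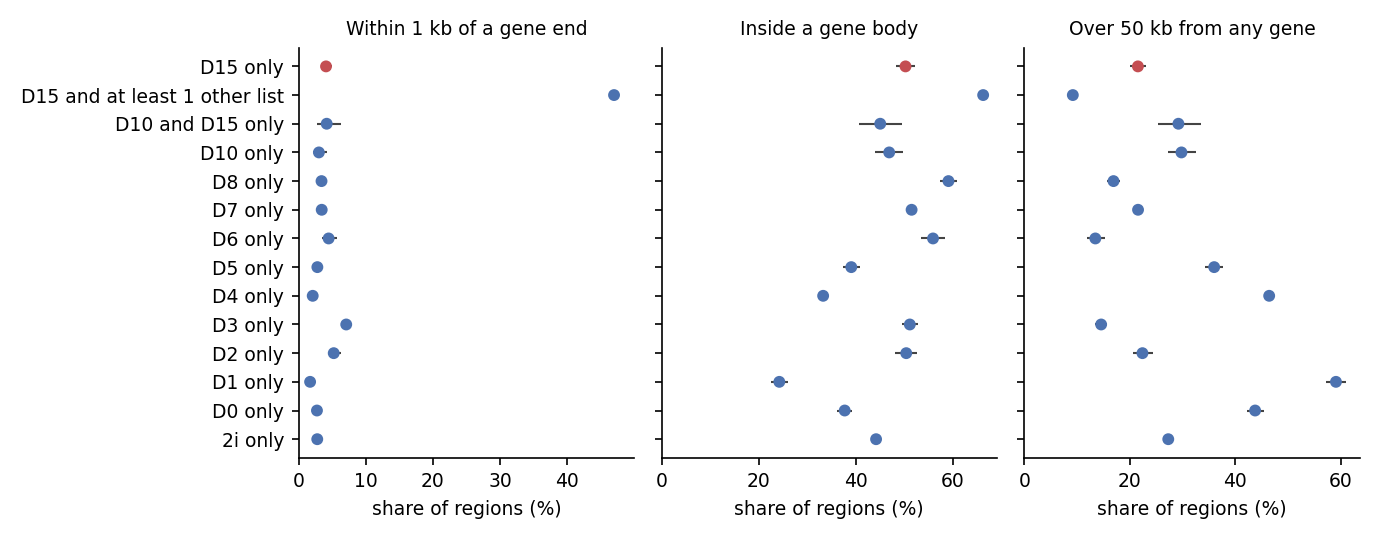
Percent of regions (x axes) within 1 kb of a protein-coding gene's end, inside a gene body and over 50 kb from any gene, for D15-only regions (red) and other sets (blue); bars are Wilson 95% intervals, for counting error only. At gene ends D15-only regions (4.08%) sit with the other single-list sets and far below the shared D15 regions (47.0%).

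By chromosome, D15-only regions were 13.8% of the D15 regions of chromosome 1 (227 of 1639) and 13.3% of chromosome 10 (170 of 1280). They were 6.12% on chromosome X (42 of 686, 4.56 to 8.17), the lowest share, and 8.68% to 12.4% on the other autosomes. The intervals of chromosomes 1, 10 and 14 lay above the genome-wide share of 10.4%, and those of chromosomes 6, 11 and X below it. No allowance was made for the number of chromosomes. The intervals of chromosomes 14 (from 10.44%) and 6 (up to 10.33%) only just missed that share (10.37%).

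Many D15-only regions were near a region called in another list without touching it. The nearest region of another list was at a median of 4.68 kb between centres, within 2 kb for 636 (24.5%) and beyond 50 kb for 37. For shared D15 regions the nearest further region was at 6.93 kb and 13.6% had one within 2 kb, and for regions of D10 and D15 only at 6.44 kb and 13.4%. Regions of the other single lists had a like closeness in most cases: 21.5% (D7) to 24.8% (D2) had another list's region within 2 kb for D2, D3, D5, D6, D7, D8 and D10, with medians of 5.09 to 5.84 kb. The shares were 16.5% at 2i, 15.6% at D0 and 11.7% at D1 and at D4. The closest neighbour had a call at D7, D8 or D10 for 1663 D15-only regions (64.0%), at D15 itself for 586 (22.5%), and at 2i to D3 alone for 535 (20.6%). Of the single-list sets, D3 (65.9%) and D6 (63.7%) had similar shares with a D7, D8 or D10 neighbour, and D1 had 22.6%.

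Stronger D15-only regions were farther from such neighbours. Among the 190 with a −log10 q of at least 10, 15.8% (11.3 to 21.6) had another list's region within 2 kb and the median distance was 5.92 kb. Among the 398 with a −log10 q under 2 the values were 27.9% (23.7 to 32.5) and 3.84 kb. The share at gene ends was 4.21% and 2.51% in the same sets, with intervals that overlap.

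The highest fold enrichment of all, 11.1, was at chr1:114781889-114782365, with no protein-coding gene within 50 kb and the nearest region outside the set, called at D0 and D2, 11.2 kb away. The next, 10.0, was at chr12:14315796-14316275, also without a gene in reach. The region at chr3:19953710-19954347, 2.90 kb upstream of Cp, which encodes the copper-carrying plasma protein ceruloplasmin, had a fold enrichment of 9.94 and the highest −log10 q among D15-only regions, 33.4. It covers the promoter window of the long non-coding RNA Gm42190. Cp had 1 region at D2, 1 at D7 and none at D8 or D10.

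The region at chr16:14989705-14990121, 20.9 kb from Efcab1, an EF-hand protein gene, had a fold enrichment of 9.80. A region 15.5 kb upstream of Fgf23, a hormone that lowers blood phosphate, had 9.64 (chr6:127057130-127057737). Inside Arhgap26, a GTPase-activating protein, a region of chromosome 18 had 9.40, and a region of chromosome 6 inside Ccser1 had 8.96. The value of a region 13.7 kb upstream of Gpr39, a zinc-sensing receptor, lay between these. The remaining 2 of the 10 strongest, at chr19:54899673-54900266 (9.30) and chr10:21628721-21629641 (8.80), had no gene within 50 kb. In all, 4 of the 10 lay in gene-poor stretches and 2 inside a gene body.

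The strongest D15-only region within 1 kb of a gene end was at Saa3, an acute-phase serum amyloid gene. It was 1033 bp wide (chr7:46719383-46720415), had a fold enrichment of 8.47 and a −log10 q of 27.9, and its centre was 0.284 kb upstream of the gene. No other list held a region assigned to Saa3. Saa3, Mrln and Camp were among 43 protein-coding genes, of 1704 with a D15-only region, whose regions in all 12 lists were D15-only ones. The like count for other lists was not made. This set also held Myh1, an adult skeletal myosin heavy chain, Klkb1, plasma prekallikrein, the chemokine gene Ccl5, Prf1, which encodes perforin, and Aspn, an extracellular matrix proteoglycan. At Myh1 the region (fold enrichment 5.60) was 76.9 kb from the nearest region outside the set, at Ccl5 it had 4.21 and at Aspn 3.52. These genes other than Saa3, Mrln and Camp were chosen after their values were seen. The 43 were of mixed kinds, and also held Vmn1r16, Obox6, Tex19.2, Snrpd3, Rrp9, Ndufb3 and Odf3. Each region was assigned to 1 gene only, so a region shared with a neighbouring gene could be credited to that neighbour. Genes of the 43 can thus lie beside regions of other lists. The nearest to the Saa3 region, 9.37 kb away, was held by 11 lists.

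In all, 1704 of 21631 protein-coding genes (7.88%) were assigned at least 1 D15-only region, by the gene body that holds its centre or the nearest gene body within 50 kb. They were 12.7% of the 13448 genes with any D15 region. For 257 of them (15.1%) D15-only regions were the sole D15 regions assigned. The like count for other lists was not made, and a D15 region shared with a neighbouring gene could be credited to that neighbour. Genes with a D15-only region were long, with a median of 60.1 kb, against 23.7 kb for genes with other D15 regions alone, and assignment by gene body favours long genes.

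Wwox, an oxidoreductase gene of 913 kb known for a fragile site, had the most D15-only regions, 8 of its 15 D15 regions, with fold enrichments up to 7.02. It had 25 regions at D7, 19 at D4, 13 at D8, 11 at 2i and 2 at D10. Of the 19 at D4, 11 were in no other list, more than the 8 of D15. Arhgap26 had 6 of 13. Nfia, a nuclear factor I gene, had 5 of 15. Cdkal1, a tRNA-modifying enzyme, had 4 of its 5 D15 regions D15-only, against 22 regions at D7 and 6 at D10. Tgfbr3 (4 of 8), Palld (4 of 11), which encodes the actin-bundling protein palladin, Ccbe1 (4 of 8), a secreted factor of lymphatic growth, Slc4a4 (4 of 9), a bicarbonate cotransporter, and Coro2b (4 of 11), a coronin, were also among the 10 with most. Their lengths ran from 118 kb (Coro2b) to 913 kb.

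Most D15-only regions were single: 2014 had no other within 50 kb, 224 pairs held 448, 39 chains held 3 each, 4 held 4 and 1 held 5. The chain of 5 ran over chr11:98708597-98786067 at Med24, a Mediator subunit, Thra, a thyroid hormone receptor, and Msl1. All of its peaks were weak, with 3.18 as the highest fold enrichment, and 20 regions of any list lay in its 77.5 kb. The chain of 4 at Tgfbr3 (chr5:107087380-107200407) reached 6.47 and held 4 of the 6 D15 regions there. The others of 4 were near Thbs2, a thrombospondin (5.42 at most), at Coro2b (4.24), and at Susd2 and Cabin1 (3.84).

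Heart muscle genes were checked first, since the labels name cardiomyocytes. At D15, 7 of 30 sarcomere and Z-disc genes had a region of the D15 list, shared or not, within 1 kb of a gene end: Actn2, Des, Myom1, Pdlim5, Tnnc1, Tnnt2 and Tpm1. Myh6, Myh7, Myl2, Myl7, Tnni3, Actc1 and Ttn had none, and the count was 8 at 2i, 14 at D7 and 7 at D10. Of the other cell types, 26 of 30 fibroblast and extracellular matrix genes had one at D15 (17 at 2i, 27 at D7 and at D8, 23 at D10). So did 8 of 10 epicardial (6 at 2i), 8 of 12 smooth muscle (5), 9 of 25 endothelial (10) and 6 of 20 blood genes (6). Endothelial and blood genes thus had no more than at 2i. Neural genes had 11 of 22 (16 at 2i) and housekeeping genes 13 of 16 (12 at 2i). The share over all genes was not computed. Of 17 naive pluripotency genes 5 had one, against 13 at 2i. In bulk samples like these, more cells of a type and more open DNA per cell cannot be told apart, and the part of other cell types in the D15-only regions was not tested.

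Across 21 gene lists, 93 D15-only regions were assigned to 72 of 445 genes, which is 11.3% (9.28 to 13.6) of the lists' D15 regions, beside 9.09% over all protein-coding genes. The sarcomere list had 4 among 33 D15 regions, at 3 of 30 genes. Nebl, encoding the Z-disc protein nebulette, had the strongest, a fold enrichment of 5.69 inside the gene (chr2:17539452-17540097). Fhl2, a LIM-domain cofactor, had 2 regions 20.1 and 22.9 kb upstream with 3.53 and 4.00, and Myom2, an M-band protein, had 1 of 2.86 that was 1.14 kb from a region called at D7, D8, D10 and D15.

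The cardiac calcium, channel and hormone list had 8 of 62, at 7 of 26 genes, and none of the 8 reached a −log10 q of 5. Kcnd2, a transient outward potassium channel, had 4.48, Kcnq1, a slow delayed rectifier, 4.23 and 3.07, and a region 9.36 kb from Atp2a2, the calcium pump SERCA2, 3.84. Jph2, Cacna2d1 and Cacna1g had 1 each, with 2.51 to 3.81. The energy metabolism list had 1 of 28, inside Acadm, the medium-chain acyl-CoA dehydrogenase (4.34).

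Cardiac transcription factors had 11 of 78, at 6 of 26 genes, and 6 of the 11 reached a −log10 q of 5. Meis1, a homeobox factor, had 1 of 6.08 inside the gene (chr11:18892613-18893042), and Nkx2-5, a core cardiac homeobox factor, 1 of 5.60 that was 16.6 kb upstream (chr17:26861238-26861981). That was the sole D15 region of Nkx2-5, which had 4 regions at D7, 3 at D8 and none at D10; Nkx2-5 was singled out after its values were seen. Zfpm2, the GATA cofactor FOG2, had 3.52 and 3.20, Prdm16 3.19, and Gata4 2.76 at 37.4 kb.

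Nuclear receptors and their coactivators had 10 of 84, at 8 of 25 genes, of which only that of Rara, a retinoic acid receptor, reached a −log10 q of 5 (4.92 fold, −log10 q 13.4). Esr1, the oestrogen receptor, had 4.16 and 3.90, and Thra 3.06 and 2.96. The TGF-β and BMP list had 7 of 75, all at Tgfbr3 (6.47, 6.41, 3.64 and 3.52), the co-receptor betaglycan, Bmp6, a ligand (4.16 and 3.66), and Ltbp1, which binds latent TGF-β (3.96). The Wnt list had 6 of 83, led by a region 34.7 kb from the ligand gene Wnt5a (6.37), then Lef1, a nuclear effector (4.16), and the receptor gene Ror2 (−log10 q 3.12). TEAD and AP-1 genes had 2 of 52, at Tead2 (3.10) and Fosl2 (2.93).

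Among genes of supporting cells, the fibroblast and matrix list had 11 of 78, at 9 of 30 genes. Lum, which encodes the collagen-binding proteoglycan lumican, had 2 of 7.26 and 6.08, the weaker across the left end of the gene (chr10:97565359-97565686), and these were all of its D15 regions. In the other lists Lum had 1 region at 2i and 1 at D6. Col6a3, a collagen VI chain, had 6.03, and Timp3, a metalloproteinase inhibitor, 5.63 and 3.92. The epicardial list had 5 of 24 (20.8%, 9.24 to 40.5), at Sema3d (6.12 and 3.84), a semaphorin, the transcription factor genes Wt1 (4.80) and Tcf21 (4.16), and Aldh1a2 (3.34). Smooth muscle had 4 of 30, at Mylk, the myosin light chain kinase (5.57 and 3.19), and Synpo2 (5.44 and 4.16).

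Endothelial genes had 6 of 47, with Tek, the angiopoietin receptor (5.12), Erg (4.64) and Robo4 (3.97) the highest. Blood genes had 3 of 18, at Runx1 (3.95 and 3.52) and Spi1 (3.77). Chondrocyte and bone genes had 5 of 30, among them Runx2, the osteoblast regulator (7.94 and 4.11), Sox5 (4.80 and 3.52) and Dlx5 (3.20). Skeletal muscle genes had 3 of 9 (33.3%, 12.1 to 64.6), at Myh1 (5.60), Myh8 (4.16) and Mymk (2.87), epithelial genes 3 of 10 (30.0%, 10.8 to 60.3), at Krt7 (3.97), Cldn4 (3.84) and Esrp1 (3.20), and endoderm genes 1 of 9, at Foxa3 (4.21). Naive pluripotency genes had 2 of 14, a region 15.5 kb upstream of Klf2 (6.19) and 1 of 3.61 upstream of Nanog. Neural genes had 1 of 26, at Snap25 (3.21), and housekeeping (0 of 21) and neural crest genes (0 of 16) had none. Intervals of 18 of the 21 lists hold the 9.09% of all genes. The skeletal, epithelial and epicardial intervals start above it, on 3, 3 and 5 regions, with no allowance for the number of lists. With the strongest 31324 peaks of each list these 3 counts were 2, 1 and 3. With D15 peaks held to a −log10 q of 5 they were 1, 0 and 2.

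**Figure D5:**
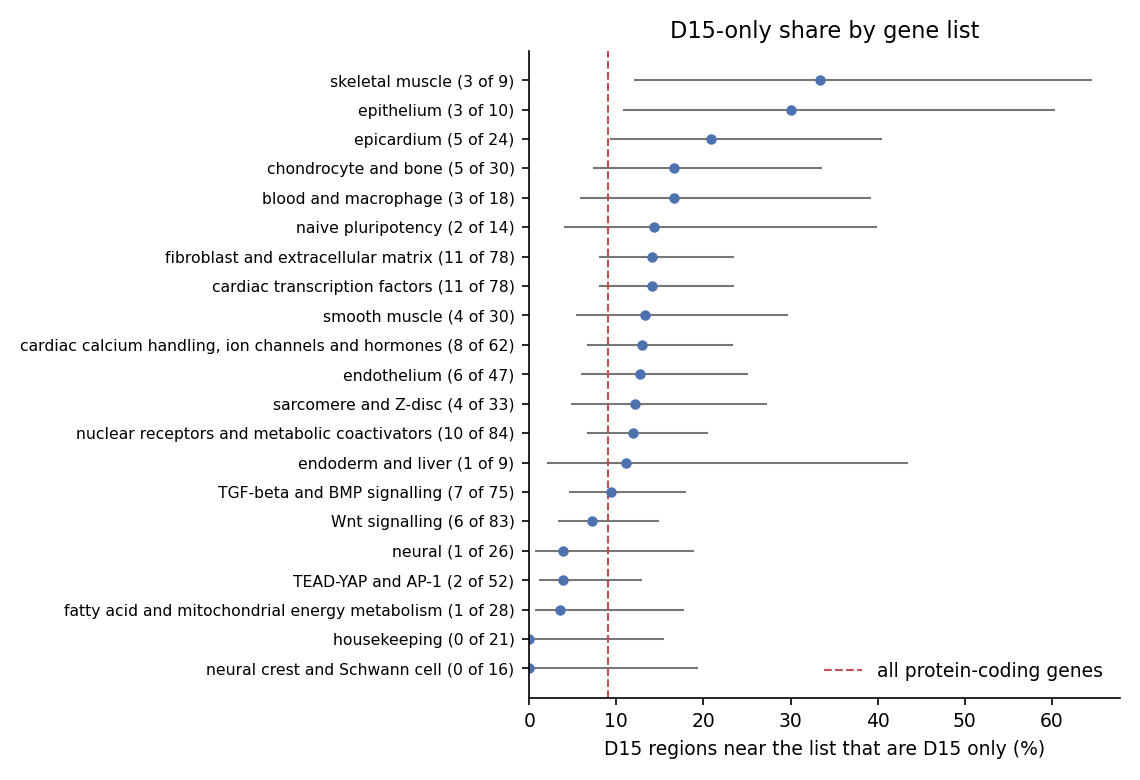
Percent of the D15 regions assigned to each of 21 gene lists that were D15-only (x axis), with Wilson 95% intervals and the counts in parentheses; the dashed line is the 9.09% of all protein-coding genes. Cardiac transcription factors (11 of 78) and fibroblast and matrix genes (11 of 78) had the most D15-only regions, and most intervals cross the line.

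Among small RNAs, 26 miRNA hairpins of the RefSeq table lay within 5 kb of a D15-only region. The share of all hairpins and the number near other regions were not computed, so this count has nothing to be compared with. On chromosome X a region of fold enrichment 6.51 (chrX:53045388-53046356) lay 2.17 kb from Mir450b and 3.57 kb from Mir542, members of 1 hairpin cluster. A region of −log10 q 3.59 at chr15:85709107-85709435, upstream of Ppara, lay 1.91 kb from Mirlet7b. These regions were not tied to the hairpins by any measurement here.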

How the data were processed

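ATAC-seq libraries from the A2lox.cre line were made from detergent-lysed nuclei with a transposase library kit, per the labels' protocols. Per the submitters' processing notes, reads were handled with Bowtie2 2.3.2, cutadapt 2.10, Picard and SAMtools 1.5, with MACS2 2.1.1 for peaks, on the mm10 build, in no stated order. Not given in the sources used here are the way replicates were combined, any shift of reads for the Tn5 offset, and depth. The deposited peak lists give each peak a fold enrichment, a linear ratio over background, its −log10 q, its −log10 p (entered here as a score) and a summit offset in bp, from the authors' peak caller. The smallest −log10 q was 1.30 to 1.31 in all 12 lists.

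Peaks were merged with bedtools 2.31.1 (overlapping or touching intervals, gap 0), and a list held a region at an overlap of 1 bp. A region's value is its highest D15 peak value. The merge and assignment steps were tested on simulated peaks. Region centres were assigned to RefSeq protein-coding genes (GRCm38.p6, the assembly mm10 names) by gene body, or the nearest within 50 kb; 79.9% had a listed strand. Upstream and downstream are given only for those, left and right otherwise in no order of transcription. All 445 list genes matched by symbol. CpG ratios and motifs were computed on the RefSeq promoter table, which does not cover all genes. Intervals of shares are Wilson 95% intervals and reflect counting error alone. Analyses used Python 3.11.15, pandas 2.3.3, statsmodels 0.14.6 and matplotlib 3.10.9.

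Named genes were the up to 3 per list with most D15-only regions (ties by fold enrichment), the 10 with most genome-wide, the 10 strongest regions, the 10 strongest promoter overlaps and the 5 longest chains. Results for a few of these genes are not reported here. Others named are list members or are said to be chosen afterwards. The regions and gene lists were chosen with earlier results of these data known.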

Additional observations from a re-analysis of the deposited data

How the results depend on the processing

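The number of D15-only regions was 1428 when peaks of all lists had to reach a −log10 q of 5, and 776 when only D15 peaks had to. It was 2346 with the strongest 31324 peaks of each list, 2445 and 2112 when peaks up to 250 and 1000 bp apart were merged, and 3188 when D15 intervals counted unless another list covered at least 50%. Leaving out each of the other lists in turn gave 2610 to 3096, the highest without D10, then 2915 without D7 and 2886 without D8. With D15 peaks held to a −log10 q of 5, 25 in place of 93 lay near the gene lists, and 19.3% in place of 24.5% lay within 2 kb of another list's region; fewer regions enter by construction. The other 35 summary values stayed within 1.5 times or within their interval, and of 84 values for single gene lists 30 did not, all on small counts. No paired analysis was possible because both replicates of a time point share 1 peak list and no result comes from a test. Without depth or replicate lists, absence from a list cannot be told from a missed call.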
